A study of Homo sapiens with 8 samples.

Results

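The multisynthetase complex is an assembly of the mammalian cytosol that holds aminoacyl-tRNA synthetases, the enzymes that attach each amino acid to its tRNA before translation. Scaffold proteins named AIMP tie the enzymes together, and RARS, the arginyl-tRNA synthetase, is bound within it through AIMP1. The enzymes are housekeeping genes of dividing cells, and several of them also have roles outside translation, such as the sensing of leucine by LARS.

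The genes described are RARS and 9 other members of that complex, out of 21597 genes with at least 1 read at an annotated intron. They comprise 8 genes of synthetases (RARS, LARS, IARS, MARS, QARS, KARS, DARS and EPRS) and 2 genes of scaffold proteins (AIMP1 and AIMP2). They were grouped because an unannotated RARS junction had reads only in the treated libraries, so every difference between treated and control libraries in RARS is given as a description, without a test. The other 9 genes were included as members of the same complex. Later annotations write most of the synthetase names with a final 1 (RARS1, LARS1).

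The samples were HEK293 cells, an established human embryonic kidney cell line, in 2 groups of 4 libraries. LMI070 replicates 13 to 16 came from cells given 25 nM LMI070, also called branaplam, a small-molecule splicing modifier known for favouring weak 5′ splice sites of exons that end in GA. DMSO replicates 9 to 12 came from cells given dimethyl sulfoxide, the solvent control, and the groups differed in no other labelled way. The study, by its title, uses a drug's effect on splicing to regulate gene therapies, and the comparison asked which splice junctions and genes differ with the drug. Ribosomal RNA had been removed from the total RNA before sequencing, and the values are counts of reads that cross a splice junction, so reads inside an exon or an intron are not counted. Uniquely mapped junction reads per library ran from 20369466 in LMI070 replicate 15 to 36131054 in LMI070 replicate 13, with all DMSO libraries between them. Each group had 2 libraries in lane 7 (LMI070 replicates 13 and 16, DMSO replicates 11 and 12) and 2 in lane 8.

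LMI070 replicate 16 and DMSO replicate 12, both in lane 7, lay farther from the rest than any other library in a scaling of spliced reads per gene, with mean distances of 0.411 and 0.406 on the log2 scale against 0.317 to 0.371 for the remaining libraries. The share of the unannotated RARS junction, the RARS level, and the levels of members that these outlying libraries move by over 1.5 times are given also without them. The other RARS values are given with all libraries. All 7 listed markers of HEK293 cells had reads, with a summed level of 32.4 to 38.7 CPM (counts scaled to library size) in LMI070 libraries and 32.9 to 35.8 CPM in DMSO libraries. The summed level of 5 fibroblast markers was 19.7 to 29.1 CPM in LMI070 libraries and 17.2 to 21.3 CPM in DMSO libraries, and COL1A1 was the only one of them with enough reads to be tested. Markers of blood cells, keratinising epithelium and hepatocytes summed to at most 0.852 CPM in any library, and SERPINA1 was at 0.

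RARS lies on the plus strand of chromosome 5, and its deepest transcript (ENST00000231572.7) spans 168486445 to 168519299 on GRCh38 in 15 exons. With LMI070, a few percent of the reads leaving exon 14 entered an extra exon in the last intron, the 1018-nt intron between exon 14 and exon 15. The extra exon follows 306 nt of intron at its main start, and its junctions are not among the introns of GENCODE 29. The exons on either side are shown because they are the ones the extra exon separates. The first stretch is the end of exon 14 with its last 3 bases in capitals, at chr5:168518003-168518062, and the second is the start of exon 15 with its first 3 bases in capitals, at chr5:168519081-168519140. Both are coding and on the plus strand, from GENCODE 29.
RARS exon 14 end: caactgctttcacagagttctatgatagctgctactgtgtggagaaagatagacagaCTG
RARS exon 15 start: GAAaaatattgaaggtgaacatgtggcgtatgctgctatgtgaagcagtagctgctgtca

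Exon 14 thus ends in CTG and not in GA. The sequence of the extra exon itself was not analysed here. The first base of a codon is the last base of exon 14, so intron 14 splits a codon, and 624 whole codons of the 660 in the RARS reading frame lie before it. The remaining 36 codons are completed or lie in exon 15, which carries the stop codon.

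The main junction into the extra exon spans chr5:168518063-168518368 and was unannotated. It had 15, 11, 14 and 14 reads in LMI070 replicates 13, 14, 15 and 16, and 0 reads in each of the 4 DMSO libraries. All 4 treated libraries held it and no control library did. Of the reads that leave exon 14 at its 3′ end, it took 2.65%, 2.56%, 3.62% and 3.94% in those LMI070 libraries, a mean of 3.20% ± 0.690 (SD, n = 4). In DMSO libraries it took 0 of 1858 such reads, which allows a share of up to 0.161% for 3 counts over the group. The mean share with LMI070 was 19.8-fold that limit. Counting error is taken into account on the DMSO side only, so this fold is not a lower bound. The junction was chosen for having no DMSO read. Limit and fold do not allow for that choice and are descriptions only. The share differed little between lanes, at 3.30% in the LMI070 libraries of lane 7 and 3.09% in those of lane 8, and it was 2.95% without LMI070 replicate 16 and DMSO replicate 12. Over all 129495 junctions tested for usage, 0.0270% likewise had a read in every LMI070 library and none in DMSO, a background set beside RARS as a description since the junction was chosen for that pattern.

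A second unannotated junction left the same end of exon 14 and entered 100 nt farther on, at 168518469. It had 4, 1, 0 and 1 reads in LMI070 replicates 13, 14, 15 and 16, and 0 reads in every DMSO library. With 6 reads in all it was read in 3 of 4 treated libraries, and in each of the 4 it had fewer reads than the first. The junction from the extra exon to exon 15, chr5:168518524-168519080, had 3, 0, 3 and 1 reads in LMI070 libraries and 0 in every DMSO library. The stretch from the first acceptor to the start of that junction, 168518369 to 168518523, is 155 nt long and not a multiple of 3. Each of the 3 junctions had the GT and AG bases of a standard intron, and none had a multiply mapped read. The longest overhang, the aligned stretch on the shorter side of a read, was 75 bases at both entering junctions and 68 bases at the leaving one. Both exceed the 55 nt between the second acceptor and 168518523, so the tables do not show that reads of the second acceptor left the exon there.

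Together 60 reads entered the extra exon and 7 left it, so the leaving junction had 11.7% of the entering reads. The cause of that imbalance was not tested, and the counts do not show whether all transcripts that entered the exon went on to exon 15. Per library, the reads into both acceptors made up 3.36%, 2.80%, 3.62% and 4.23% of those leaving exon 14 in LMI070 replicates 13, 14, 15 and 16, a mean of 3.50% ± 0.592 (SD, n = 4), against 0% in each DMSO library. The annotated junction from exon 14 to exon 15 kept 96.5% ± 0.592 of those reads in LMI070 libraries, against 100% in DMSO libraries. It had 546, 417, 373 and 340 reads in LMI070 libraries, against 382, 502, 517 and 457 reads in DMSO replicates 9, 10, 11 and 12. The map of the last intron shows the summed reads of each junction.

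**Figure D1:**
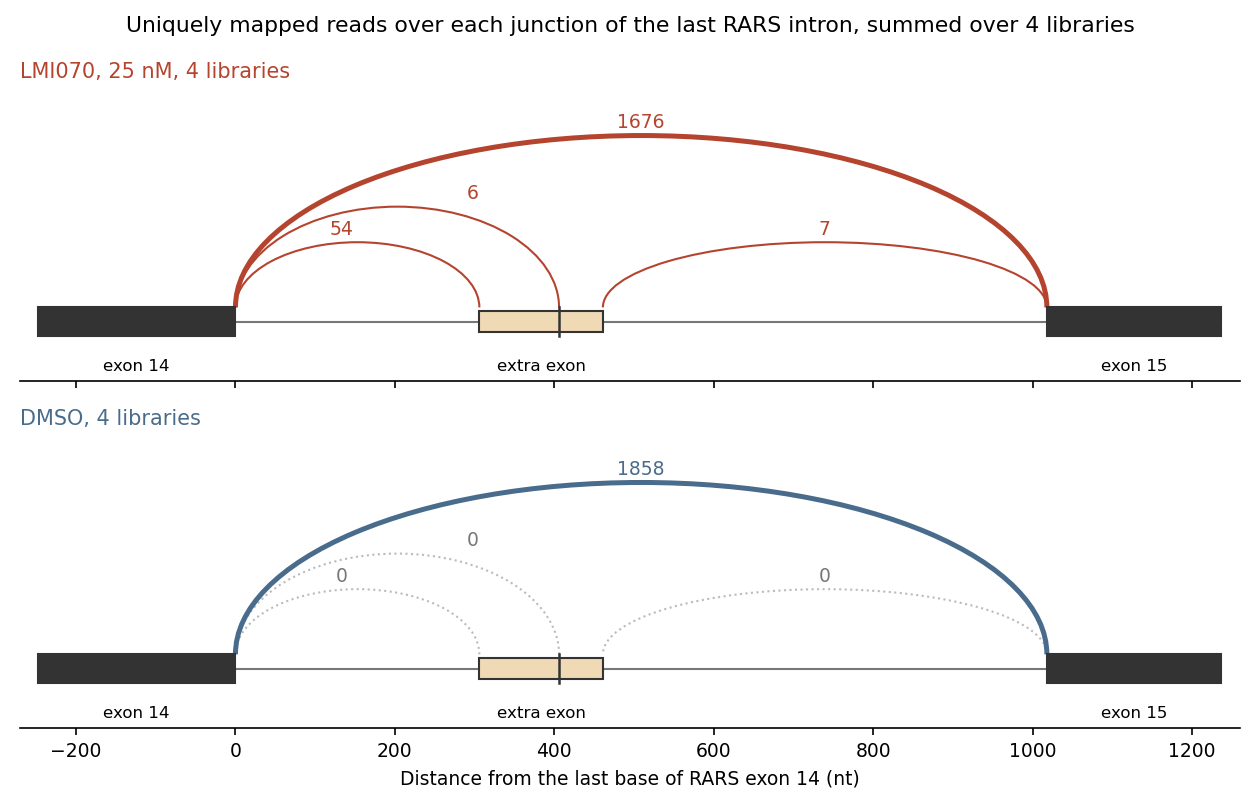
Map of the last RARS intron, with distance from the last base of exon 14 in nt on the horizontal axis, LMI070 above DMSO. Each arc is a junction labelled with its uniquely mapped reads summed over 4 libraries: 54, 6 and 7 reads joined the extra exon (pale, with a tick at the second acceptor) in LMI070 and 0 in DMSO, where dotted arcs mark junctions without a read, while 1676 and 1858 reads joined exon 14 to exon 15 directly.

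Reads over intron 14 were also set against those over intron 13, the intron before it, which the extra exon does not touch. That ratio was 0.827, 0.774, 1.01 and 0.823 in LMI070 replicates 13, 14, 15 and 16, against 0.784, 0.8996, 0.856 and 0.822 in DMSO replicates 9, 10, 11 and 12. The groups overlapped, at 0.858 ± 0.103 in LMI070 libraries and 0.840 ± 0.0491 in DMSO libraries (SD, n = 4 each). The plot of RARS by library gives both measures.

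**Figure D2:**
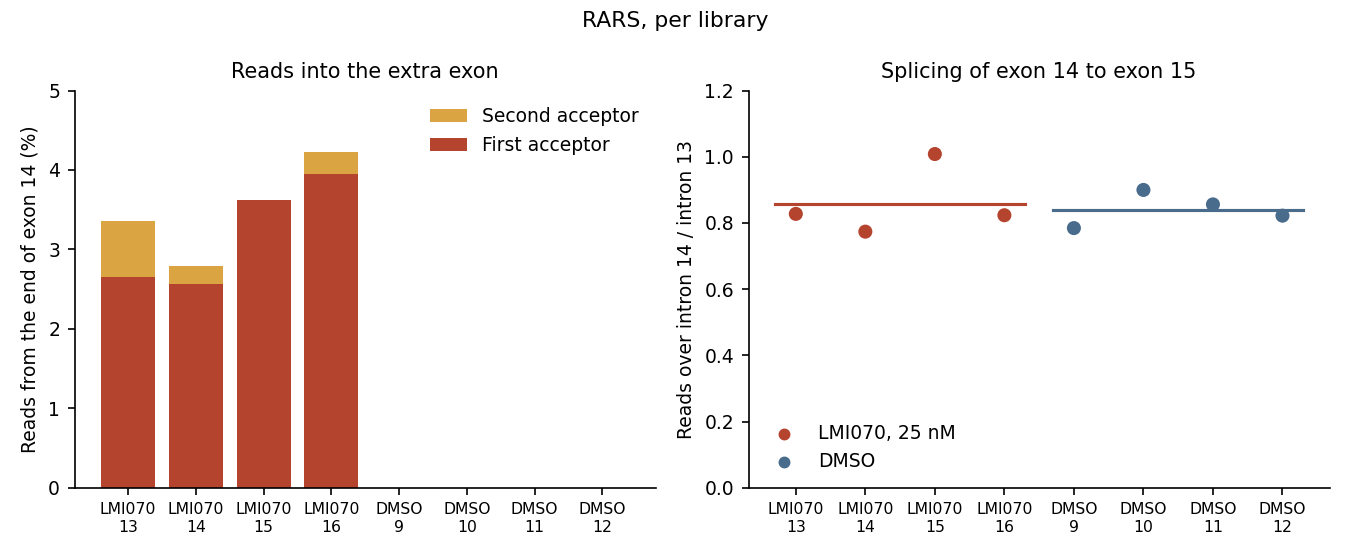
RARS in each library, LMI070 (red) left of DMSO (blue). Left, percent of the reads leaving exon 14 that entered the extra exon at its first or second acceptor, 2.80% to 4.23% for both together in LMI070 libraries and 0% in DMSO libraries; right, reads over intron 14 divided by reads over intron 13, with lines at the group means of 0.858 and 0.840.

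Apart from the extra exon, RARS had few unannotated reads. Its other unannotated junctions had 36 reads over the LMI070 libraries, 0.141% ± 0.0422 of the junction reads of the gene, and 49 reads over the DMSO libraries, 0.172% ± 0.0359 (SD, n = 4 each). None of them reached 20 reads over the 8 libraries. The share of all unannotated reads in RARS was 0.398% ± 0.0846 in LMI070 libraries, and 67 of the 103 reads behind it joined the extra exon.

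The level of RARS was lower with LMI070. Its spliced reads, summed over all annotated introns, came to 232, 259, 258 and 245 CPM in LMI070 replicates 13, 14, 15 and 16, against 271, 276, 289 and 306 CPM in DMSO replicates 9, 10, 11 and 12. The groups did not overlap, and the log2 fold change was -0.20. Among all 14250 genes tested, CPM values of the groups did not overlap with the LMI070 side lower in 2.58%, a background given beside RARS with nothing read from it. The difference was not the same in both lanes, at a log2 fold change of -0.31 in lane 7 and -0.08 in lane 8, and it was -0.15 without LMI070 replicate 16 and DMSO replicate 12. In bulk samples like these, fewer cells that express a gene and less RNA per cell cannot be told apart.

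With both lanes pooled, the mean CPM of each of the 14 introns was lower in LMI070 libraries. Ratios to DMSO ran from 0.817 at intron 4 to 0.937 at intron 7. A lower mean at every intron is not claimed for each lane alone. Introns of 1 gene are not independent, so their count adds no support to the gene's value. Intron 1 had the fewest reads in both groups, at 7.62 ± 1.37 CPM in LMI070 libraries and 8.36 ± 0.8293 CPM in DMSO libraries, and intron 11 the most, at 25.3 ± 1.31 CPM and 27.4 ± 1.62 CPM in LMI070 and DMSO libraries (SD, n = 4 each). Intron 14, where the extra exon lies, had 15.8 ± 1.38 CPM in LMI070 libraries and 18.7 ± 1.52 CPM in DMSO libraries, a ratio of 0.845. That ratio was inside the range of the other introns.

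**Figure D3:**
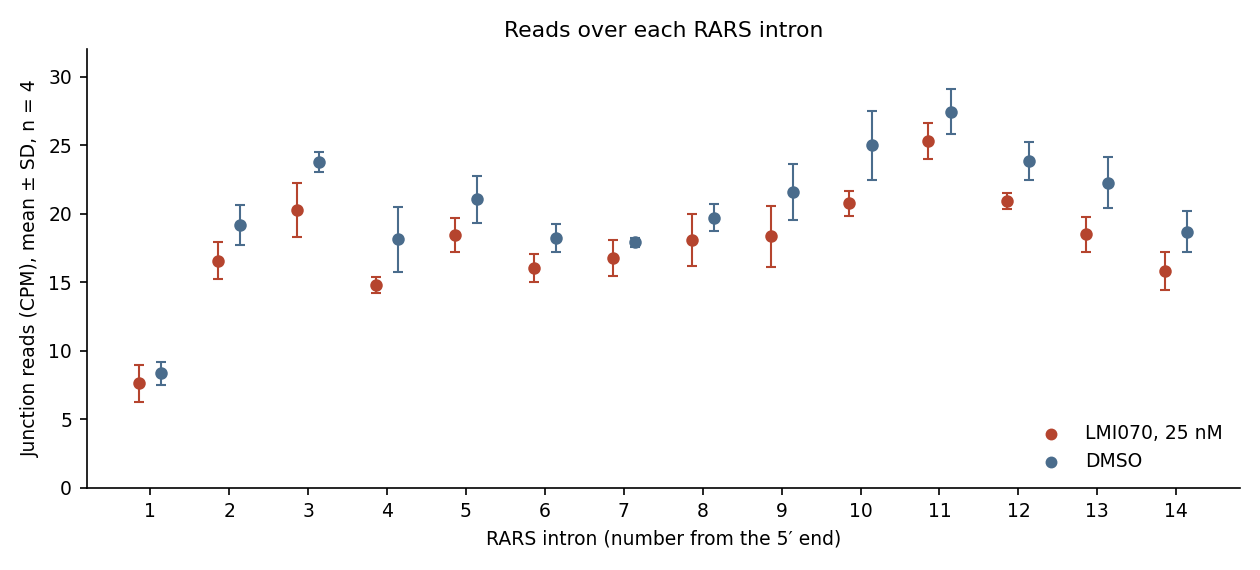
Junction reads in CPM over each of the 14 RARS introns, numbered from the 5′ end, as mean ± SD of 4 libraries for LMI070 (red, left of each pair) and DMSO (blue, right). The LMI070 mean is below the DMSO mean at every intron, with ratios from 0.817 to 0.937.

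By a fixed rule, the genes whose levels ran most like those of RARS over the 8 libraries included NDFIP2, VBP1, NAE1 and AGPAT5. Likeness was the root mean square difference of mean-centred log2 CPM, among 10905 genes with a mean of at least 100 reads. It was 0.0272 for NDFIP2, an adaptor of NEDD4 ubiquitin ligases, 0.0312 for VBP1, a prefoldin subunit, and 0.0319 for NAE1, a subunit of the NEDD8-activating enzyme. The value for AGPAT5, an acyltransferase, was 0.0350. These 4 genes had log2 fold changes from -0.24 in NAE1 to -0.18 in VBP1 and, like RARS, their lowest level was in an LMI070 library. The rule compared levels over all 8 libraries of both groups. Fold changes near that of RARS therefore follow from the choice, and nothing is read from them.

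The members differed in level. To compare genes of different length, the median CPM over the introns of each gene's deepest transcript was used, which counts each gene per junction. In DMSO libraries IARS, the isoleucyl-tRNA synthetase, was highest at 31.9 ± 0.876 CPM per intron, followed by KARS, the lysyl-tRNA synthetase, at 23.2 ± 0.812. LARS, the leucyl-tRNA synthetase, had 21.5 ± 0.553 and RARS 20.5 ± 1.48. In DMSO libraries these 4 genes were the members with a mean above 20 CPM per intron. Next came DARS, the aspartyl-tRNA synthetase, at 18.6 ± 0.771, MARS, the methionyl-tRNA synthetase, at 17.9 ± 0.962, and EPRS, the enzyme that charges both glutamate and proline, at 17.7 ± 0.645. QARS, the glutaminyl-tRNA synthetase, had 15.4 ± 0.372 CPM per intron in DMSO libraries. The scaffold genes were lowest, AIMP2 at 14.7 ± 0.927 and AIMP1 at 10.4 ± 0.490 (SD, n = 4 for each gene). Neighbours in this order lay within their spread from LARS to RARS, DARS, MARS and EPRS and from QARS to AIMP2. The steps from IARS to KARS, KARS to LARS, EPRS to QARS and AIMP2 to AIMP1 were larger than the spread.

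On the same per-intron scale RARS had 16.4, 18.5, 18.7 and 17.2 CPM in LMI070 replicates 13, 14, 15 and 16, against 19.0, 19.5, 21.4 and 22.1 CPM in DMSO replicates 9, 10, 11 and 12, a ratio of means of 0.863. LARS had 20.5 ± 0.615 CPM per intron in LMI070 libraries and 21.5 ± 0.553 in DMSO libraries (SD, n = 4 each), a ratio of 0.950. On this scale its groups did not overlap, with 20.8 CPM the highest LMI070 value and 21.1 CPM the lowest DMSO value. On reads summed per gene, given below, LARS overlapped and DARS did not, whereas per intron DARS overlapped. The share of all genes without overlap per intron was not computed. The ratios of the other 8 members ran from 0.926 in DARS to 1.06 in QARS.

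None of the 9 other members passed the gene test, which asked whether spliced reads per gene differ between the groups. The test called 18 of 14250 genes, 0.126%, at an adjusted p under 0.05 (edgeR's quasi-likelihood test with lane in the model), with 0.105% of the genes lower and 0.0211% higher with LMI070. At an unadjusted p under 0.05, 2 of the 9 members passed, DARS and QARS, against 10.4% of all genes, and by DESeq2 0 of the 9 passed after adjustment and 2 before it. DARS and QARS are singled out here after their values were seen.

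DARS had 257, 264, 270 and 261 CPM in LMI070 replicates 13, 14, 15 and 16, against 281, 290, 286 and 302 CPM in DMSO replicates 9, 10, 11 and 12. The groups did not overlap, as in 4.17% of all genes tested in either direction. The log2 fold change was -0.14 ± 0.0387 (SE), with an unadjusted p of 0.00189 and an adjusted p of 0.269 by edgeR, so DARS did not pass. It was -0.18 in lane 7 and -0.10 in lane 8. Each of its 15 introns had a lower mean in LMI070 libraries, at ratios from 0.838 to 0.960. So had all 6 introns of AIMP1 and all 3 of AIMP2, against 5 of 20 in MARS and 5 of 23 in QARS. Introns of 1 gene are not independent, so their count adds no support to the gene's value.

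QARS had 383.55, 368, 357 and 394 CPM in LMI070 libraries, against 355, 359, 360 and 345 CPM in DMSO libraries. The groups overlapped through LMI070 replicate 15, and the log2 fold change was 0.08 ± 0.0384 (SE; edgeR's quasi-likelihood test, adjusted p = 0.476). It was 0.15 in lane 7 and 0.02 in lane 8, and 0.05 without LMI070 replicate 16 and DMSO replicate 12.

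Of the remaining enzymes, LARS, IARS, KARS and EPRS had log2 fold changes from -0.06 in KARS to -0.04 in IARS, and MARS had 0.04. The lowest adjusted p among them was 0.622, in KARS, by edgeR's quasi-likelihood test. Their 95% intervals ran from -0.14 at the lower end, in KARS, to 0.12 at the upper end, in MARS. In lane 8 alone LARS, IARS, KARS and EPRS turned to small positive values of 0.01 to 0.03. Without LMI070 replicate 16 and DMSO replicate 12, the log2 fold change was -0.02 in LARS and IARS and -0.01 in EPRS, and likewise 0.00 in the scaffold gene AIMP1. For the scaffold genes the log2 fold change was -0.07 in AIMP1 and -0.13 in AIMP2, with adjusted p-values of 0.709 and 0.483 by edgeR. AIMP2 had 34.02, 37.7, 40.1 and 32.9 CPM in LMI070 libraries, against 42.4, 37.6, 40.1 and 37.5 CPM in DMSO libraries, and its groups overlapped. EEF1E1, a further auxiliary subunit of the complex also called AIMP3, had -0.07 and an adjusted p of 0.678 by edgeR, and -0.01 without those 2 libraries.

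**Figure D4:**
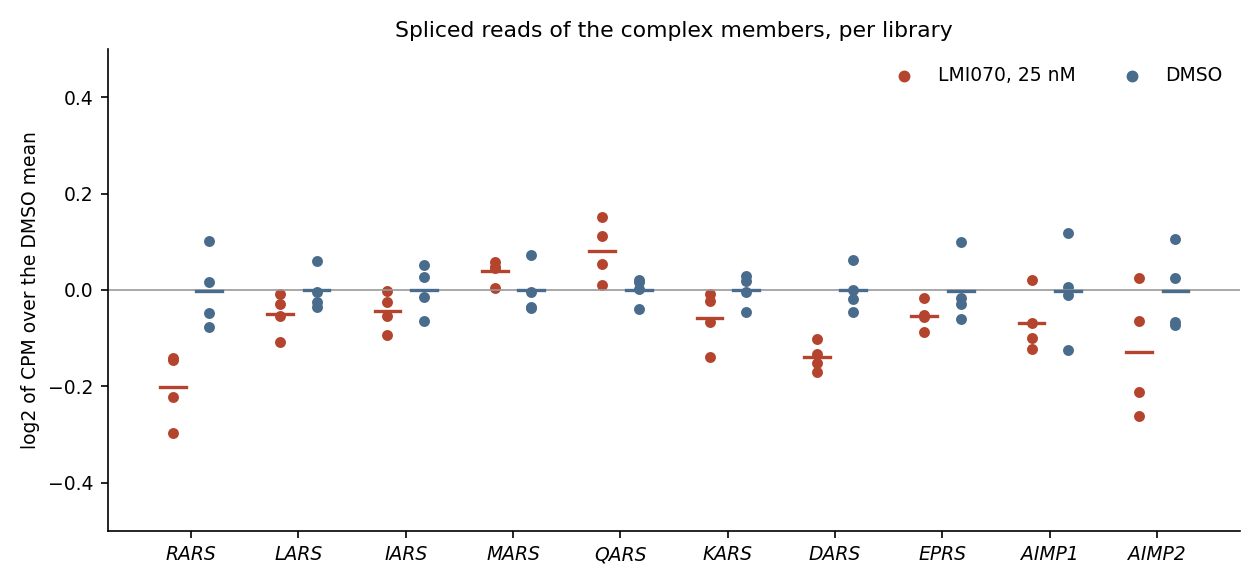
Spliced reads of each member per library, as log2 of CPM over the gene's DMSO mean, LMI070 (red) left of DMSO (blue), with a bar at the mean of the log2 values. RARS and DARS have all 4 LMI070 libraries below all DMSO libraries, and the groups overlap in the other 8 genes.

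Taking all 10 members, 8 had a negative and 2 a positive log2 fold change, with a median of -0.06, beside a median of 0.00 over all genes tested, of which 50.9% were negative. The list was chosen with RARS in it, so the count is a description. The cytosolic synthetases outside the complex had a median of -0.01, with 0 of 13 past the gene test by edgeR. Of those 13, 2 had an unadjusted p under 0.05 by edgeR, both higher with LMI070, against 10.4% of all genes in either direction. DESeq2 called 0 after adjustment and 3 before it. The 2 by edgeR were AARS and VARS, the alanyl- and valyl-tRNA synthetases, named after their values were seen. VARS had 271, 237, 236 and 264 CPM in LMI070 libraries, against 229, 231, 232 and 220 CPM in DMSO libraries, and its groups did not overlap, as in 1.59% of all genes with the LMI070 side higher. Its log2 fold change was 0.14, and the adjusted p was 0.317 by edgeR. It was 0.25 in lane 7 and 0.04 in lane 8, and in lane 7 alone VARS and AARS passed the test. The groups did not overlap either in YARS, the tyrosyl-tRNA synthetase, also named after its values were seen. YARS had 209.9 to 222 CPM in LMI070 libraries against 199.8 to 208 CPM in DMSO libraries. Its log2 fold change was 0.08, with an adjusted p of 0.482 by edgeR.

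The mitochondrial synthetases, 16 of 17 tested, had a median of -0.04, and the elongation factors, 5 of 5 tested, a median of 0.00. In the mitochondrial gene YARS2, named after its values were seen, every LMI070 library was below every DMSO library, as in 2.58% of all genes. Genes known as targets of ATF4, the factor that raises many synthetase genes under amino acid stress, had a median of 0.05 over 13 of 15 tested. None of these lists had a gene past the test by edgeR, at an unadjusted p under 0.05 or by DESeq2 in either form. Among the cell type markers, 1 of 7 HEK293 genes (NEFM) and the fibroblast gene COL1A1 had an unadjusted p under 0.05 by edgeR. Of all genes 10.4% did, and none of the markers passed after adjustment. COL1A1 had a log2 fold change of 0.29, and its part in the values above was not tested.

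Splicing of the other 9 members was compared junction by junction. Usage is the share a junction takes of all reads at its splice sites. The test called 186 of 129495 junctions, 0.144%, and 86 of them, 0.0664%, with a change of at least 10 percentage points (edgeR's quasi-likelihood test, adjusted p under 0.05). In the 9 members 201 junctions were tested, 175 of them annotated, and none was called. At an unadjusted p under 0.05, 9 of the 201 passed, against 3.10% of all junctions, and by DESeq2 0 passed after adjustment and 2 before it. The smallest unadjusted p was 0.0103, at a MARS junction whose mean usage was 99.7% in LMI070 libraries and 98.9% in DMSO libraries. The mean usage of no tested junction of the 9 genes differed by more than 2.62 percentage points, the value of an AIMP2 junction at the start of that gene that rests mostly on LMI070 replicate 16.

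Unannotated junctions of the 9 members numbered 366 and were read to a like extent in both groups, with 1226 reads over the LMI070 libraries and 1196 over the DMSO libraries. Of them, 110 were read only in LMI070 libraries, with at most 5 reads each, and 104 only in DMSO libraries, with at most 6 reads each. For RARS the deepest LMI070-only junction had 54 reads. The share of unannotated reads per gene was called in 30 of 10377 genes, 0.289%, with 29 of them, 0.279% of genes, higher with LMI070 (edgeR's quasi-likelihood test, adjusted p under 0.05). None of the 9 members was called by edgeR or by DESeq2, and none had an unadjusted p under 0.05 in either, against 5.49% of all genes by edgeR.

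That share was highest in the scaffold genes. AIMP2 had 4.34%, 4.57%, 3.99% and 5.54% in LMI070 replicates 13, 14, 15 and 16, against 4.65%, 4.06%, 3.76% and 3.83% in DMSO replicates 9, 10, 11 and 12. AIMP1 had 1.37% ± 0.238 in LMI070 libraries and 1.52% ± 0.310 in DMSO libraries. Groups overlapped in both genes. Among the enzymes it ran from 0.0862% ± 0.0272 in EPRS to 0.426% ± 0.0886 in LARS in LMI070 libraries, and from 0.0920% ± 0.0330 in EPRS to 0.446% ± 0.0738 in LARS in DMSO libraries (SD, n = 4 each). RARS, set beside them as a description, had 0.354%, 0.304%, 0.441% and 0.493% in LMI070 libraries, against 0.162%, 0.144%, 0.225% and 0.157% in DMSO libraries.

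**Figure D5:**
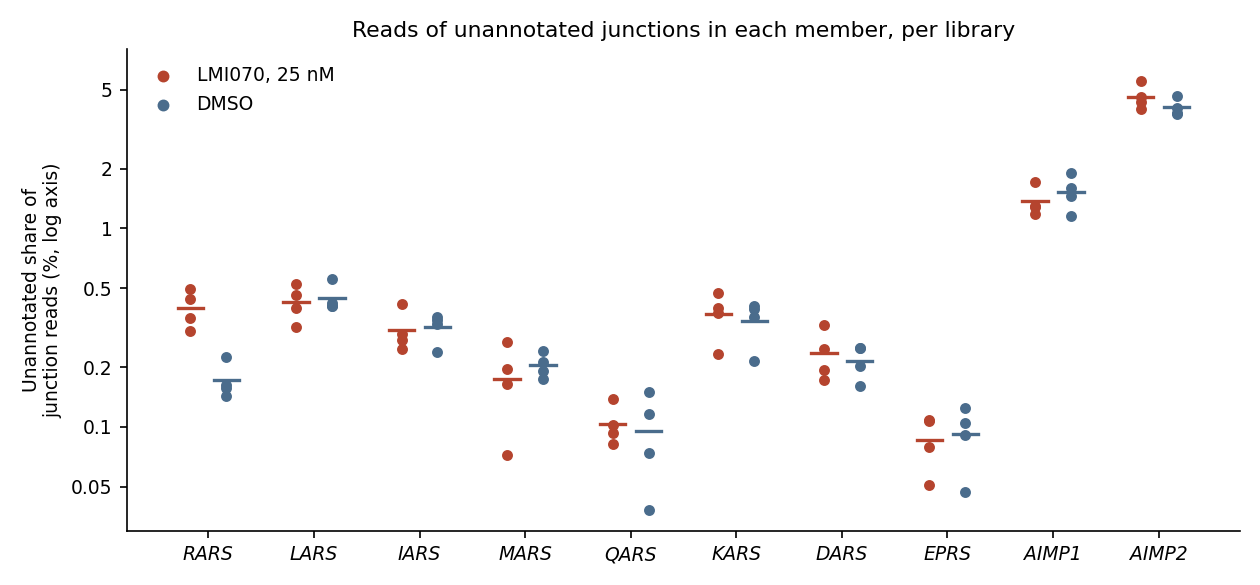
Reads of unannotated junctions as percent of the junction reads of each member, on a log axis, per library, LMI070 (red) left of DMSO (blue), with a bar at the group mean. RARS has every LMI070 library above every DMSO library, at 0.304% to 0.493% against 0.144% to 0.225%, and the groups overlap in the other 9 genes. The RARS reads include the junction chosen for being read only with LMI070. Without the extra exon the RARS means are 0.141% in LMI070 and 0.172% in DMSO libraries. The share of all genes without overlap on this measure was not computed.

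A single unannotated junction of the 9 members was read in every LMI070 library and in no DMSO library. It lies in DARS at chr2:135979367-135985402 and had 2, 1, 1 and 1 reads in LMI070 replicates 13, 14, 15 and 16. With 5 reads in all it fell under the minimum of 20 reads and was not tested, and it was picked out after its counts were seen. The share of 0.0270% given above covers tested junctions only. How often junctions with so few reads show this pattern was not computed, so nothing is read from it. The deepest unannotated junction of the members other than RARS was in AIMP2, at chr7:6009379-6015145, from an end inside the annotated first exon to exon 2. It took 15.8% ± 3.44 of the reads at its sites in LMI070 libraries and 13.2% ± 1.53 in DMSO libraries (SD, n = 4 each), with 41, 35, 29 and 35 reads against 28, 33, 32 and 32 reads. The difference of 2.62 points had an adjusted p of 0.977 by edgeR. LMI070 replicate 16 was highest, at 21.0%, and without it the difference was 0.908 points.

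In AIMP1 the deepest unannotated junction, chr4:106321452-106324984, took 11.7% ± 1.34 in LMI070 libraries and 10.9% ± 3.71 in DMSO libraries. In KARS it was chr16:75631856-75635679, with 17, 12, 4 and 12 reads in LMI070 libraries against 1, 5, 11 and 8 reads in DMSO libraries. That is a usage of 0.955% ± 0.344 in LMI070 libraries and 0.524% ± 0.342 in DMSO libraries, with an unadjusted p of 0.0399 and an adjusted p of 0.977 by edgeR. The groups overlapped in each of these 3 genes. The deepest unannotated junction of LARS, IARS, MARS, QARS, DARS and EPRS took at most 1.53% of its sites on average in either group.

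Members with known alternative exons showed the annotated splicing choices of the complex. They were picked from the values for intermediate usage. KARS makes its cytosolic and its mitochondrial enzyme from the same gene, and its exon 2 adds the start of the mitochondrial form. The coding part of that exon is shown because it is the stretch that sets the forms apart, at chr16:75644283-75644428 on the minus strand, from GENCODE 29, with its last 3 bases in capitals.
KARS exon 2 coding part: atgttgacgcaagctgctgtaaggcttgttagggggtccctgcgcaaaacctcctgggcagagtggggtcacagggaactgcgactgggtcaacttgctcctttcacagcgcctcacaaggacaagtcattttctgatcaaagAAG

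KARS exon 2 was included in 21.0%, 19.6%, 21.2% and 23.3% of transcripts in LMI070 replicates 13, 14, 15 and 16, against 22.96%, 22.2%, 21.5% and 23.3% in DMSO replicates 9, 10, 11 and 12. Inclusion is the mean of the reads on both sides over that mean plus the skipping reads. The means were 21.3% ± 1.53 in LMI070 libraries and 22.5% ± 0.815 in DMSO libraries (SD, n = 4 each), and the groups overlapped. Its skipping junction was not called in the usage test (adjusted p = 1.00, edgeR's quasi-likelihood test).

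AIMP2 exon 2 is the exon that the known DX2 variant of this scaffold lacks. It is 207 nt long, at chr7:6015146-6015352 on the plus strand, and all of it is coding. It is shown, with its last 3 bases in capitals, as the exon that distinguishes the variant.
AIMP2 exon 2: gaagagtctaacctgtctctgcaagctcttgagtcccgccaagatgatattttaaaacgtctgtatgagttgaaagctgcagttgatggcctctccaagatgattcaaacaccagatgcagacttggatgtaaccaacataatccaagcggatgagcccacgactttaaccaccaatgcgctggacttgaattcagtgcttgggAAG

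Inclusion of AIMP2 exon 2 was 89.7%, 91.9%, 91.0% and 93.0% in LMI070 libraries, against 88.9%, 91.3%, 87.8% and 94.2% in DMSO libraries. The means were 91.4% ± 1.41 and 90.5% ± 2.84 in LMI070 and DMSO libraries (SD, n = 4 each), and the DMSO libraries spread more widely than the LMI070 ones. QARS exon 23 of 24 had an inclusion of 91.1% ± 2.35 in LMI070 libraries and 92.2% ± 1.79 in DMSO libraries. IARS had alternative first introns, and the one at chr9:92289427-92293440 took 37.7% ± 2.89 in LMI070 libraries and 38.5% ± 4.37 in DMSO libraries (SD, n = 4 each). None of these choices was called in the usage test, where the adjusted p was at least 0.977 for each by edgeR.

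Exons of the members were also searched for the GA ending that LMI070 is known to favour. Of 190 exons followed by an intron in the deepest transcripts of the 10 genes, 1 ended in GA and 0 in AGA. Over all protein-coding transcripts 1.69% of 215538 such exons ended in GA and 0.740% in AGA. That background is not limited to deepest transcripts, and with a count of 1 no difference from it is read. The member exon that ended in GA was exon 2 of EPRS, at chr1:220040185-220040269 on the minus strand. It is shown from GENCODE 29 with its last 3 bases in capitals.
EPRS exon 2: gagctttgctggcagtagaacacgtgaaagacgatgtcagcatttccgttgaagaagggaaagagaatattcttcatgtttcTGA

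EPRS exon 2 was included in 99.8% of transcripts on average in LMI070 libraries and 99.7% in DMSO libraries, with 4 skipping reads in LMI070 libraries and 5 in DMSO libraries. The letters at the end of an exon are a description and say nothing of what bound there.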

How the data were processed

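Total RNA of HEK293 cells was sequenced as stranded, ribosome-depleted libraries, per the labels' protocols. STAR 2.6.0c was the aligner and GRCh38 the build, per the submitters' processing notes, and the alignment parameters are not given in the sources used here. The deposited tables hold raw counts of uniquely and multiply mapped reads over each splice junction, 1 table per library and without normalization. Introns of GENCODE 29 served as the annotation. The deposited annotation mark gave the same answer for 99.8% of 654181 junctions.

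Uniquely mapped counts were used. Spliced reads per gene were summed over annotated introns, filtered with filterByExpr, scaled with TMM factors and tested with edgeR 4.0.16 (quasi-likelihood) under R 4.3.3, with lane and treatment in the model. CPM are counts scaled by the library total times its TMM factor. Usage of a junction and the unannotated share of a gene were tested as paired counts with a coefficient for each library. Both tests needed at least 20 reads over all libraries (unannotated reads, for the share) and 10 in each at the sites or in the gene. Benjamini-Hochberg adjustment covered all features tested. Introns that belong to 1 gene alone held 95.9% of the annotated reads.

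The labels do not say whether libraries came from separate cultures, so each p measures the spread between these libraries. Every pair of replicates differed by more than counting error, with a chi-square per degree of freedom of at least 1.92. Among LMI070 pairs it was 3.73 within lane 7, 1.92 within lane 8 and 10.6 to 12.9 across lanes. Among DMSO pairs it was 7.20 within lane 7, 1.95 within lane 8 and 3.88 to 7.87 across lanes. Limits for 0 reads use 3 counts and cover counting error only. Named junctions were the RARS junction, its splice-site partners, any junction of the stretch beyond it, the deepest unannotated junction of each other member and any junction past the usage test. Genes of the other lists were named where they passed the gene test. Of the genes most like RARS in level, 1 is not reported here. Others are marked as picked after their values were seen. The members and lists were chosen with earlier results of these data known. Alternatives were DESeq2 1.42.0, its size factors, no filter, no lane term, each lane alone, added multiply mapped reads, a minimum overhang, introns of a single gene and each library left out. The scripts were tested on simulated data.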

Additional observations from a re-analysis of the deposited data

Results flagged for a closer look

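Each member's level, its unannotated share, the 3 alternative exons and the RARS ratios were checked for a library far from the rest of its group, in 50 groups of 4 libraries. Chance marks about 1 group in 20 by this rule, so the single one found is fewer than chance alone would give. The unannotated share of junction reads in LARS, the leucyl-tRNA synthetase, was 0.557% in DMSO replicate 9, against 0.405% to 0.419% in the other DMSO libraries. LARS had 0.426% ± 0.0886 in LMI070 libraries (SD, n = 4).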

How the results depend on the processing

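No paired analysis was possible because the groups share no replicate numbers. Of 667 recomputed values, 611 kept their direction and their side of the threshold, or moved by less than the spread. No alternative brought any of the 9 members other than RARS past the gene, usage or unannotated-share test. The RARS junction share lay between 2.95% and 3.41% against annotated introns only, in each lane and without each LMI070 library. It is a mean over LMI070 libraries and has no multiply mapped reads. Leaving out a DMSO library or adding multiply mapped reads therefore could not change it, and those values are among the 611. The RARS log2 fold change lay between -0.31 (lane 7) and -0.08 (lane 8). The cause of the changes below was not tested.

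In lane 8 alone, log2 fold changes turned to 0.011 (LARS), 0.027 (IARS), 0.0096 (KARS), 0.0075 (EPRS), 0.029 (AIMP1), 0.030 (EEF1E1) and -0.0095 (AARS). In points, unannotated shares there turned to -0.025 (QARS), 0.0068 (EPRS) and -0.071 (AIMP2). In lane 7 alone they turned to 0.083 (LARS), 0.0055 (IARS) and 0.034 (MARS), and usage to -0.19 (AIMP1 deepest unannotated), -0.53 (KARS exon 2 skipping) and 0.57 (IARS first intron). Without DMSO replicate 12 and LMI070 replicate 16, an alternative chosen after seeing the data, they were 0.94 (IARS first intron), -0.0095 (QARS share), -0.0023 (KARS share) and 0.010 (EPRS share). The shares of LARS and MARS kept their sign there, at -0.063 and -0.065, and usage moved to 1.42 (AIMP2 deepest unannotated), 0.17 (AIMP1 deepest unannotated), 1.84 (KARS exon 2 skipping), -0.83 (AIMP2 exon 2 skipping) and 1.15 (QARS exon 23 skipping). None of these values was called.

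Leaving out 1 library at a time, usage ran from -0.34 to 2.48 points (AIMP1), -1.12 to 0.033 (AIMP2 exon 2 skipping) and -2.24 to 0.67 (IARS). Shares ran from -0.054 to 0.016 (LARS), -0.048 to 0.0086 (IARS), -0.060 to 0.0047 (MARS), -0.010 to 0.028 (QARS), -0.016 to 0.072 (KARS), -0.011 to 0.040 (DARS) and -0.021 to 0.0059 (EPRS).

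Of the cytosolic synthetases outside the complex, 1 passed without a filter (VARS) and 2 in lane 7 (AARS, VARS), where 1 ATF4 target (PHGDH) passed too. Genes called in all numbered 18, but 36 by DESeq2, 272 without a filter, 666 in lane 7, 47 in lane 8 and 11 to 18 without 1 library, with the 11 without LMI070 replicate 14. With LMI070, 3 were higher and 15 lower, but 211 higher and 61 lower without a filter and 529 higher and 137 lower in lane 7. Junctions called numbered 186, but 97 by DESeq2, 109 without a filter and 88 in either lane alone. Genes called for the unannotated share numbered 30, but 11 by DESeq2, 11 in lane 7 and 17 in lane 8.

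The extra RARS exon rests on 67 reads, and 0 of 1858 DMSO reads still allow a share of up to 0.161%. That limit covers counting error and does not allow for the choice of the junction by its lack of DMSO reads.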
